A study of Mus musculus with 2 samples.

Results

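The let-7 family with miR-98 was measured by 20 of the 1900 mouse miRNA probes on each of 2 arrays. The probes were taken by name alone, those of mmu-let-7a, mmu-let-7b, mmu-let-7c, mmu-let-7d, mmu-let-7e, mmu-let-7f, mmu-let-7g, mmu-let-7i and mmu-miR-98, with 9 guide arms (5p) and 11 passenger arms (3p) described apart. RNA came from colonic lamina propria mononuclear cells, the immune cells of the connective tissue under the gut epithelium, of male Balb/c mice. One array held RNA of mice kept specific pathogen-free (SPF), with a gut microbiota, and the other that of germ-free mice, without one. Each group had 1 array, so no value has a replicate error and no difference has a p-value. The number of animals behind each sample was not stated. The isolate is a mixture, in which fewer cells of a type and less RNA per cell cannot be told apart.

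let-7 was found in Caenorhabditis elegans as a gene that times the passage to adult cell fates, and in mammals its members are abundant in differentiated cells. The guide arm, loaded into an Argonaute protein, pairs through its seed with messages such as those of Hmga2 and Lin28. The proteins Lin28a and Lin28b in turn bind let-7 precursors and block their maturation. In immune cells let-7 members are known to restrain cytokine and Toll-like receptor messages, including Il10 and Il6. The passenger arm is usually degraded.

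The mature sequences show how little separates the guide arms, which all carry 1 seed (bases 2 to 8, in capitals, 5′ to 3′, from RefSeq on GRCm38). All 21 names on the 20 probes had a sequence.
let-7a-5p: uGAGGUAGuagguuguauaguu
let-7b-5p: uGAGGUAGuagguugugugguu
let-7c-5p: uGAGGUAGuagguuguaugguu
let-7d-5p: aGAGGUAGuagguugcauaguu
let-7e-5p: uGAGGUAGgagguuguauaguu
let-7f-5p: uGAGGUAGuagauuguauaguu
let-7g-5p: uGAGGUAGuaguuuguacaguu
let-7i-5p: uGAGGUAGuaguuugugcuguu
miR-98-5p: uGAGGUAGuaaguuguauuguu
Counted from the 5′ end of let-7a-5p, let-7c-5p differs by A19G, let-7e-5p by U9G and let-7f-5p by G12A. let-7b-5p differs by A17G and A19G, let-7d-5p by U1A and U16C, and miR-98-5p by G11A and A19U. let-7g-5p differs by G12U and U18C, and let-7i-5p by G12U, A17G, U18C and A19U, so both carry G12U and U18C. Over the 36 pairs of guide arms the number of differing bases ran from 1 to 6. A probe for 1 member may therefore bind its relatives, and the 9 probes are not independent measurements.

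The 12 passenger names have 8 different seeds, none of them the guide seed. The passenger arms of the let-7b, let-7d and let-7f-1 precursors are shown because they were the brightest of their kind on both arrays.
let-7b-3p: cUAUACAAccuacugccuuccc
let-7d-3p: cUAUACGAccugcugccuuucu
let-7f-1-3p: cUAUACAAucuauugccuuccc
The precursors of let-7g and let-7i, the guide arms with the lowest SPF over germ-free values, are shown with both mature arms in capitals. Mirlet7g lies on the plus strand at chr9:106178840-106178927 (GRCm38), in an intron of Wdr82 on the same strand. Mirlet7i lies on the minus strand at chr10:122985640-122985724 (GRCm38), where GENCODE M21 places an exon of the transcribed pseudogene D630033A02Rik.
Mirlet7g: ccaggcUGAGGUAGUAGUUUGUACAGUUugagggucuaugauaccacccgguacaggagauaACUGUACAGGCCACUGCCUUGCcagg
Mirlet7i: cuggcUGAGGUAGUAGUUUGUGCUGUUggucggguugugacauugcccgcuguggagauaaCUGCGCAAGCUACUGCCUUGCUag

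Net intensity is the spot's median intensity minus the mean of the array's blank spots, which was 158.3 on the SPF array (SD 5.33, 895 spots) and 128.5 on the germ-free array (SD 4.53, 896 spots). The floor was a net intensity of 2 SD of the blank spots, 10.7 on the SPF array and 9.05 on the germ-free array. SPF values were multiplied by 0.849, so that the 1471 miRNA probes above the floor on both arrays had the same median intensity, and SPF net intensities are given after this scaling. Bright control probes spotted 8 times had a log2 SD of 0.0908 within an array, which gives 0.128 for a difference between single bright spots. This technical SD covers spots within an array and not extraction, labelling or hybridisation.

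**Figure D1:**
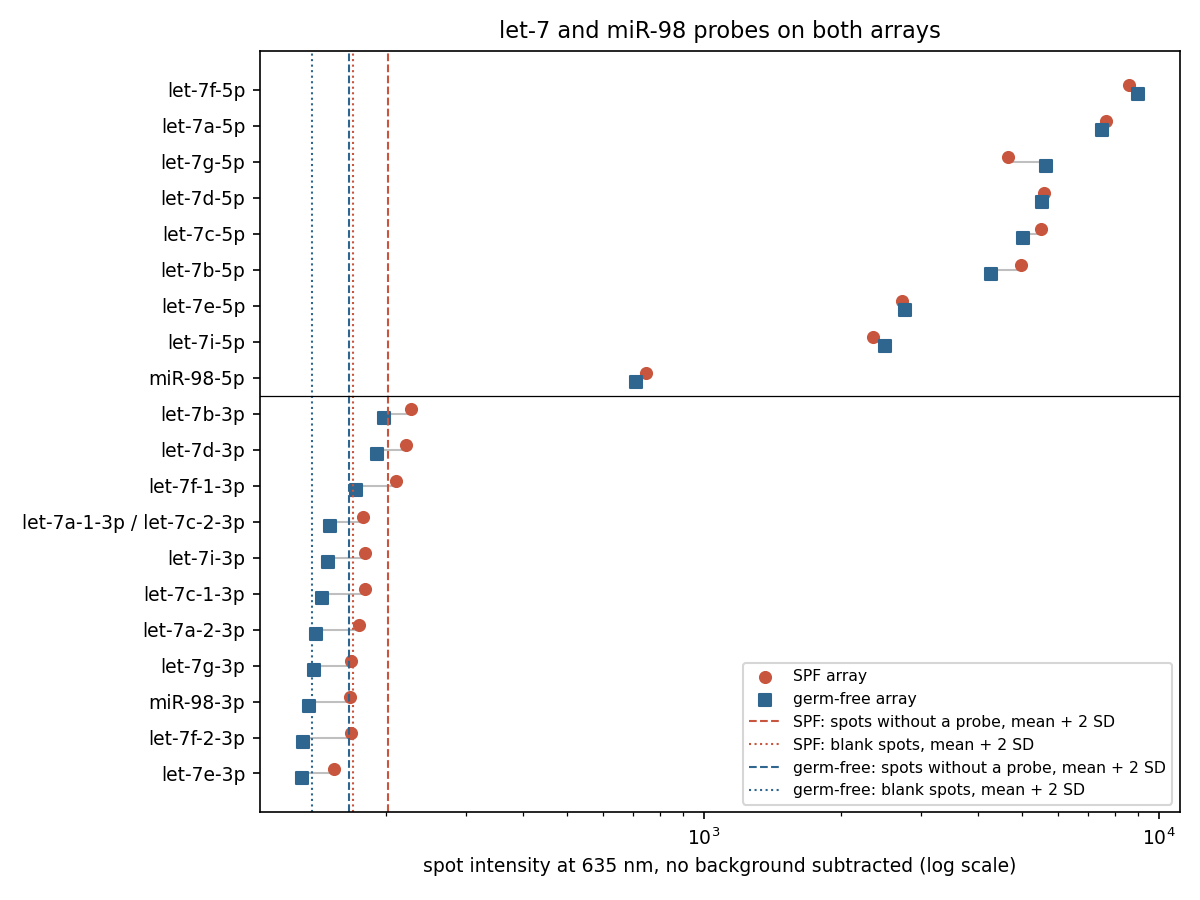
Spot intensity of the 20 probes (log axis, no background subtracted) on the SPF array (circles) and the germ-free array (squares), with dotted lines at the blank mean + 2 SD and dashed lines at the mean + 2 SD of spots without a probe. The guide arms lie between 746 and 8590 on the SPF array and between 709 and 9002 on the germ-free array, while the passenger arms reach no more than 226.8 and 198.1.

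All 9 guide arms were bright on both arrays and had a lower net intensity on the SPF array than on the germ-free array with this scaling, whereas without scaling 5 of the 9 were higher. let-7f-5p, which is known to target the NF-kappa B inhibitor Tnfaip3 in mouse macrophages, was the brightest, with a net intensity of 7160 on the SPF array and 8873 on the germ-free array. let-7a-5p, identical in sequence to the founding worm let-7, had 6376 on the SPF array and 7395 on the germ-free array. These were the leading probes of the family on both arrays.

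let-7g-5p had a net intensity of 3818 on the SPF array and 5536 on the germ-free array. let-7d-5p, which represses Hmga2 in human lung epithelium, had 4624 on the SPF array and 5407 on the germ-free array. let-7c-5p, linked to alternative activation of mouse macrophages, had 4546 on the SPF array and 4898 on the germ-free array. Of these, let-7g-5p was the one whose arrays lay farthest apart.

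let-7b-5p, which regulates neural stem cells in mice, had a net intensity of 4091 on the SPF array and 4159 on the germ-free array. let-7e-5p, which targets the receptor Tlr4 in mouse macrophages, had 2181 on the SPF array and 2636 on the germ-free array. let-7i-5p, which targets the same receptor in human cholangiocytes, had 1862 on the SPF array and 2376 on the germ-free array. The values of let-7b-5p were nearly equal, and those of let-7e-5p and let-7i-5p were lower on the SPF array.

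miR-98-5p, known to repress Il10 in macrophages, was the faintest guide arm, with a net intensity of 499 on the SPF array and 580 on the germ-free array. The order of the other members was let-7f, let-7a, let-7d, let-7c, let-7b, let-7g, let-7e and let-7i on the SPF array, and let-7f, let-7a, let-7g, let-7d, let-7c, let-7b, let-7e and let-7i on the germ-free array. let-7g thus stood in the sixth place on the SPF array and in the third on the germ-free array. Neighbours closer than the technical SD were let-7d with let-7c and let-7b with let-7g on the SPF array, and let-7g with let-7d on the germ-free array. Probes can differ in how well they bind, so this order of intensity need not be an order of abundance.

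Log2 SPF over germ-free had a median of -0.23 over the 9 guide arms, beside -0.06 over the 1471 probes above the floor on both arrays. The guide arm median minus that of all probes was thus -0.17, and multiplying an array by 1 factor cannot change this difference. It was -0.24 without background subtraction, -0.09 with the median of each block of spots taken off, and 0.10 over the 5 guide arms with a value after local background subtraction. All 9 guide arms were below 0, and 57.6% of the 1471 probes were. Without scaling between arrays 4 of the 9 guide arms were below 0, and 28.1% of the 1471 probes were, with medians of 0.01 for the guide arms and 0.18 for all probes. Among the 735 of these probes that were brighter than the median, 60.1% were below 0. At a fold of 1.2, which is 0.26 on the log2 scale or about 2 technical SD, 4 of the 9 guide arms were lower on the SPF array and none higher. Of all 1471 probes 25.3% were lower by that fold and 16.9% higher. No guide arm reached a fold of 2 in either direction, which 2.99% of all probes did.

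The lowest guide arm was let-7g-5p at -0.54 ± 0.13 (technical SD), or 1.45-fold lower on the SPF array. Of the 1471 probes 9.31% had a log2 value as low. Its local background exceeded its signal on both arrays, so it has no value with local background subtracted. The next were let-7i-5p (-0.35 ± 0.13), let-7f-5p (-0.31 ± 0.13) and let-7e-5p (-0.27 ± 0.13). These 4 were the members past 1.2-fold, and each stayed below 0 without scaling, where let-7g-5p alone was past that fold.

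let-7d-5p at -0.23 ± 0.13, miR-98-5p at -0.22 ± 0.13 and let-7a-5p at -0.21 ± 0.13 lay between 1 and 2 technical SD from 0. let-7c-5p at -0.11 ± 0.13 and let-7b-5p at -0.02 ± 0.13 lay within 1 technical SD of it. Without scaling these 5 stood between 0.01 and 0.21, and let-7b-5p was also above 0 with quantile, loess or equal total scaling. The log2 values of the 9 guide arms had an SD of 0.15, little above the technical SD of 0.128. Of the 36 pairs of guide arms, 2 differed by more than 2 technical SD of such a comparison (0.18 each), and the widest pair, let-7b-5p and let-7g-5p, lay 0.51 apart.

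**Figure D2:**
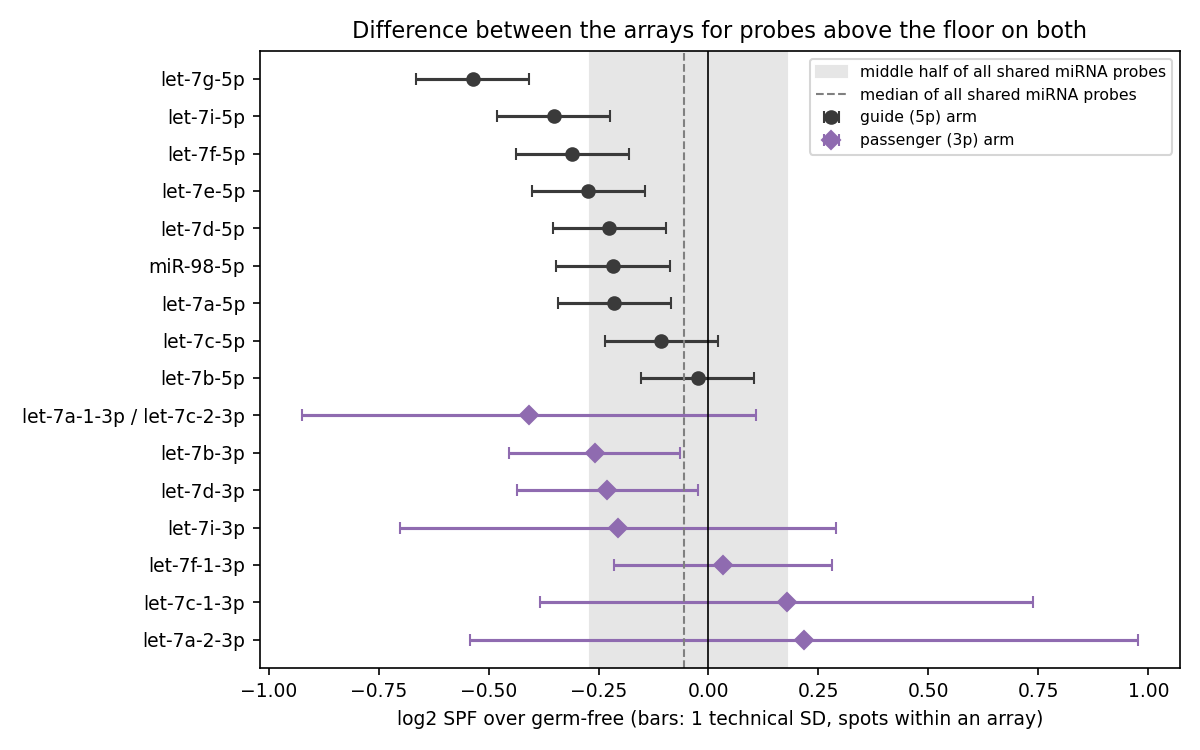
Log2 SPF over germ-free of the 16 family probes above the floor on both arrays, with bars of 1 technical SD for spots within an array, the median of all 1471 shared probes (dashed) and their middle range from the lower to the upper quartile (grey). The guide arms run from -0.54 for let-7g-5p to -0.02 for let-7b-5p (5 of the 9 are above 0 without scaling), and the bars of the passenger arms are wider.

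The passenger arms gave little signal. Of the 11 probes, 7 were above the floor on both arrays, let-7g-3p on the germ-free one alone, and let-7e-3p, let-7f-2-3p and miR-98-3p on neither. Spots without any probe reached an intensity of 202.2 on the SPF array and 165.8 on the germ-free array (mean + 2 SD). Only let-7b-3p, let-7d-3p and let-7f-1-3p exceeded that on each array.

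let-7b-3p had a net intensity of 58.1 on the SPF array and 69.5 on the germ-free array, a log2 value of -0.26 ± 0.19 (technical SD). let-7d-3p had 53.1 on the SPF array and 62.2 on the germ-free array, at -0.23 ± 0.21. let-7f-1-3p had 44.1 on the SPF array and 43.1 on the germ-free array, at 0.03 ± 0.25. The first pair was lower on the SPF array by little more than 1 technical SD, and let-7f-1-3p was level.

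The 7 passenger arms above the floor on both arrays had a median of -0.21, with 4 below 0 and 3 above it, beside 57.6% below and 42.4% above among all 1471 probes. Without scaling 2 of the 7 were below 0, beside 28.1% of all probes. let-7a-1-3p and let-7c-2-3p, which have the same sequence and share 1 probe, stood at -0.41 ± 0.52, and let-7a-2-3p at 0.22 ± 0.76. All passenger values but that of let-7b-3p and let-7d-3p were within 1 technical SD of 0. A difference of the size seen in the guide arms was not detectable in most of them at this signal.

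Guide arm signal exceeded passenger arm signal by a wide margin for each of the 3 precursors whose arms could both be read. The ratio of net intensities was 70.4 on the SPF array and 59.8 on the germ-free array for let-7b, and 87.2 on the SPF array and 86.9 on the germ-free array for let-7d. For let-7f-5p over let-7f-1-3p it was 162.5 on the SPF array and 205.9 on the germ-free array, where let-7f-5p also arises from a second precursor. Guide minus passenger log2 SPF over germ-free was 0.23 ± 0.23 for let-7b, 0.00 ± 0.24 for let-7d and -0.34 ± 0.28 for let-7f (technical SD). The arms of no precursor lay 2 technical SD apart.

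**Figure D3:**
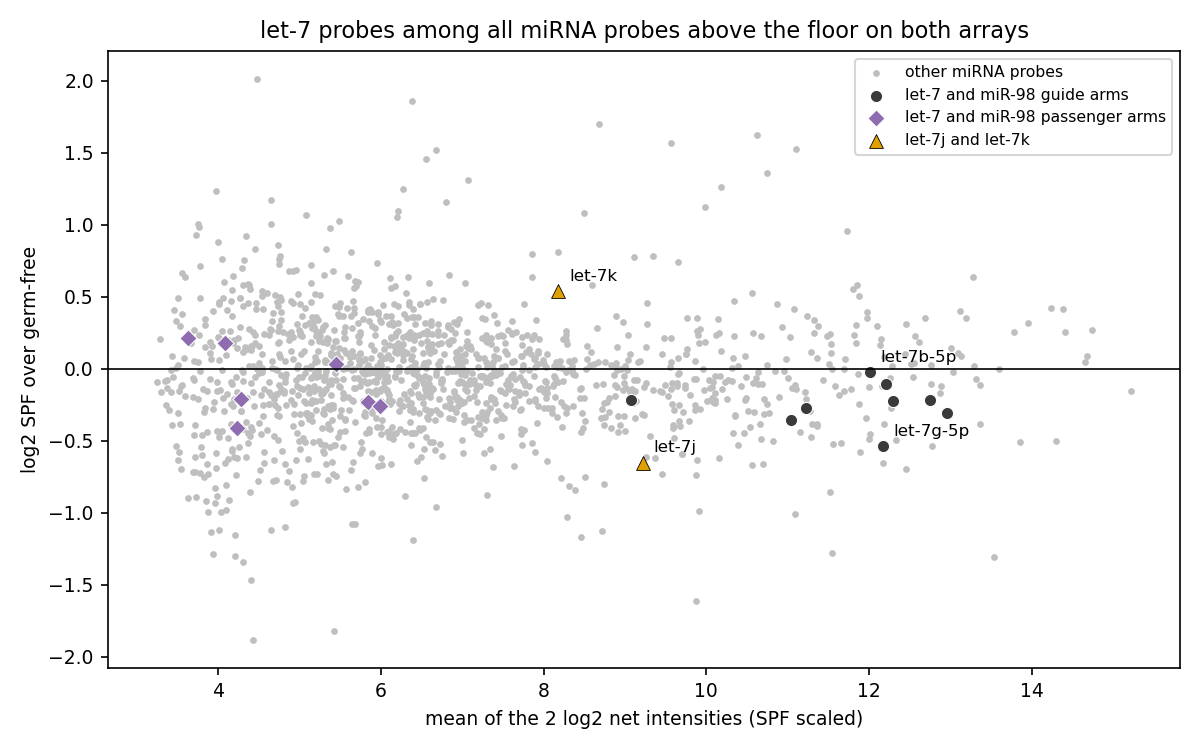
Log2 SPF over germ-free against the mean of the log2 net intensities for the 1471 miRNA probes above the floor on both arrays (SPF values scaled by 0.849). The guide arms sit among the bright probes, all below 0 with this scaling (4 of 9 without it) and inside the cloud, let-7j lies below them at -0.65 and let-7k above them at 0.54.

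The guide arms come from 12 precursors in 8 places of the genome. GENCODE M21 and RefSeq gave the same bounds for each of the 12. Mirlet7d, Mirlet7f-1 and Mirlet7a-1 lie within 2261 bases at chr13:48536012-48538272 (GRCm38), in the long non-coding RNA gene 6720427I07Rik. Their guide arms stood close together on the log2 scale, from -0.31 for let-7f-5p to -0.21 for let-7a-5p. This was not particular to the cluster, as let-7e-5p and miR-98-5p, from other loci, lay in the same range. Mirlet7f-2 and Mir98 lie in an intron of Huwe1 at chrX:151912346-151913321 (GRCm38), and miR-98-5p stood at -0.22. Mirlet7c-2 and Mirlet7b lie at chr15:85706603-85707403 (GRCm38) in the non-coding gene Lncppara, and gave the values nearest to 0, -0.11 for let-7c-5p and -0.02 for let-7b-5p. Mirlet7e, Mirlet7g and Mirlet7i each lie apart from other let-7 genes and are the only precursors of their guide arms, which stood at -0.27 for let-7e-5p, -0.54 for let-7g-5p and -0.35 for let-7i-5p. let-7f-5p, with both precursors in clusters, stood between the values of let-7i-5p and let-7e-5p. let-7a-5p, let-7c-5p and let-7f-5p each arise from a pair of loci, whose parts in 1 signal cannot be told apart.

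At 3 loci a let-7 precursor lies beside relatives of miR-125, the mammalian lin-4, and of miR-99 and miR-100. Mir99b, Mirlet7e and Mir125a lie within 686 bases at chr17:17830194-17830879 (GRCm38) in an intron of Spaca6. let-7e-5p was lower on the SPF array at -0.27 ± 0.13, whereas miR-99b-5p stood at 0.53 ± 0.18 and miR-125a-5p at 0.45 ± 0.14 (technical SD). miR-99b-5p had a net intensity of 95.0 on the SPF array and 66.0 on the germ-free array. miR-125a-5p had 253.6 on the SPF array and 185.8 on the germ-free array. Both were brighter on the SPF array, while let-7e-5p between them was not. Without background subtraction, which shrinks differences of weak probes, miR-99b-5p stood at 0.20 and miR-125a-5p at 0.26.

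The other passenger-side probes of that cluster did not all follow, with miR-99b-3p at 0.47 ± 0.23 and miR-125a-3p at -0.05 ± 0.13. miR-99b-3p lies in the block of spots with the highest median (0.32). With block medians taken off it stood at 0.15, miR-125a-3p at -0.02, miR-99b-5p at 0.69 and miR-125a-5p at 0.60. Near Mirlet7a-2 on chromosome 9, miR-100-5p stood at -0.41 ± 0.20 and miR-125b-1-3p, the passenger arm of Mir125b-1, at -0.24 ± 0.14. Near Mirlet7c-1 on chromosome 16, miR-99a-5p stood at 0.10 ± 0.26. miR-125b-5p, at 0.23 ± 0.13, arises from Mir125b-1 on chromosome 9 and from Mir125b-2 on chromosome 16, whose parts in its signal cannot be told apart. Of the 5 neighbouring 5p arms 4 were above 0 and 1 below, with a median of 0.23, beside 42.4% above 0 among all 1471 probes. With scaling on the control probes 3 of the 5 were above 0, and 71.7% of all probes were below 0. Without scaling 4 of the 5 were above 0, and only 28.1% of all probes were below 0. Of all 11 neighbouring probes, 8 were above the floor on both arrays, with 5 above 0, 3 below and a median of 0.16.

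**Figure D4:**
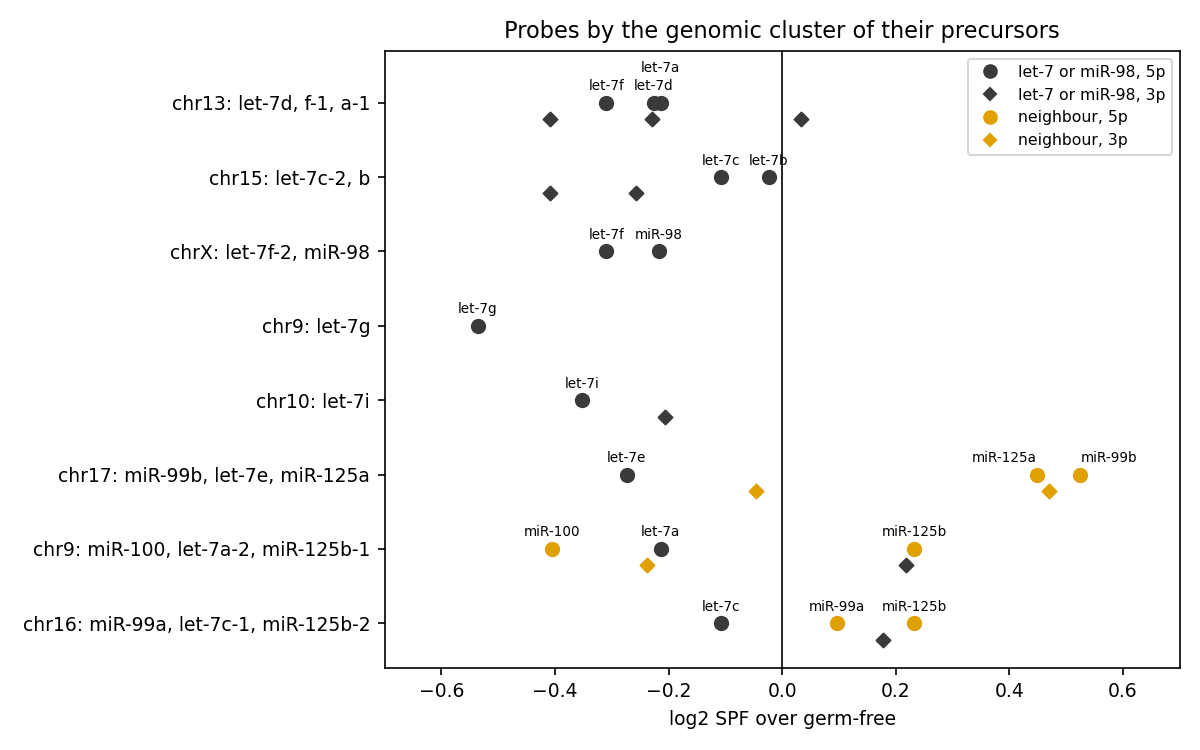
Log2 SPF over germ-free of the probes above the floor on both arrays, by the genomic cluster of their precursors (5p arms as circles, 3p arms as diamonds, miR-99, miR-100 and miR-125 neighbours in a lighter colour). On chromosome 17 let-7e-5p stands at -0.27 and its neighbours miR-125a-5p and miR-99b-5p at 0.45 and 0.53.

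Outside the family, 2 mature mouse miRNAs in the RefSeq table share the let-7 seed, let-7k and miR-1961. let-7j, whose seed differs from let-7 in its last base, was added after its value was seen.
let-7k: uGAGGUAGgagguugugug
miR-1961: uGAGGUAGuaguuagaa
let-7j: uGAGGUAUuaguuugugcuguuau
let-7k, which differs from let-7b-5p by 1 base over their 19 shared positions, had a net intensity of 350.5 on the SPF array and 241.0 on the germ-free array, a log2 value of 0.54 ± 0.13 (technical SD). let-7b-5p stood 0.56 below it. The value of let-7k was 0.35 without background subtraction. let-7j, which differs from let-7i-5p by 1 base over 22 positions, had 475.3 on the SPF array and 746.4 on the germ-free array, at -0.65 ± 0.13. The let-7k and let-7j probes may also bind the brighter let-7b-5p and let-7i-5p, which was not tested. Relative to let-7a-5p, let-7j carries G8U, G12U, A17G, U18C and A19U. It shares G12U and U18C with let-7g-5p and let-7i-5p, which stood at -0.54 and -0.35, a grouping noticed after the values were seen. miR-1961 also carries G12U, and with 17 bases it is too short for U18C.

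miR-1961 lay just over the floor with germ-free RNA and under it with SPF RNA, so that its log2 value is at or below -0.04. miR-202-3p, which has a seed close to that of let-7, lay near the floor with net intensities of 11.2 on the SPF array and 10.5 on the germ-free array. miR-202-5p was under the floor on both.

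Position on the array moved with some of these values. The 1471 probes lie in 32 blocks of 36 to 53 such probes, whose median log2 values ran from -0.25 to 0.32. let-7f-5p lies in the block with the lowest median (-0.25), let-7a-5p and let-7b-5p in 1 at -0.18, and let-7c-5p, let-7d-5p and let-7e-5p in 1 at -0.14. let-7g-5p and let-7i-5p share a block with a median of 0.08, and the block of miR-98-5p had 0.17. With the block median taken off, let-7g-5p stood at -0.61, let-7i-5p at -0.43 and miR-98-5p at -0.39. The other 6 guide arms then lay between -0.13 and 0.16. The guide arm median was -0.09 and 7 of the 9 guide arms were below 0, beside 49.4% of all 1471 probes and a median of 0 over them.

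Cell type markers also differed between the samples. The 7 epithelial miRNAs on the list (miR-200a, miR-200b, miR-200c, miR-141, miR-429, miR-192 and miR-194) were all higher on the SPF array, with a summed net intensity of 14362 on the SPF array and 5384 on the germ-free array. Of 5 blood cell miRNAs (miR-150, miR-142a, miR-223, miR-155 and miR-342) 1 was higher and 4 were lower on the SPF array. Their sums were 13274 on the SPF array and 26556 on the germ-free array. Most of both sums was miR-150-5p, with 7552 on the SPF array and 18700 on the germ-free array. On the log2 scale miR-142a-5p stood at -0.66, miR-342-3p at -0.59 and miR-155-5p at -0.36, while miR-223-3p stood at 0.74. Of all 1471 probes 42.4% were higher on the SPF array and 57.6% lower. Each marker was read from the brighter of its arms. The 3 stromal miRNAs (miR-143-5p, miR-145a-5p and miR-126a-3p) had a median log2 value of 0.25, with sums of 445.2 on the SPF array and 395.8 on the germ-free array. Of them miR-143-5p stood at -0.01, while the other arm of that precursor, mmu-miR-143-3p, stood at 0.45. No marker was under the floor on either array. Their part in the let-7 values was not tested.

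Over all the ways of processing other than local background subtraction, let-7g-5p stayed between -0.67 and -0.30 and let-7i-5p between -0.48 and -0.12. let-7b-5p, the guide arm nearest to 0, ran from -0.15 to 0.21. let-7g-5p therefore kept its sign while that of let-7b-5p turned.

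**Figure D5:**
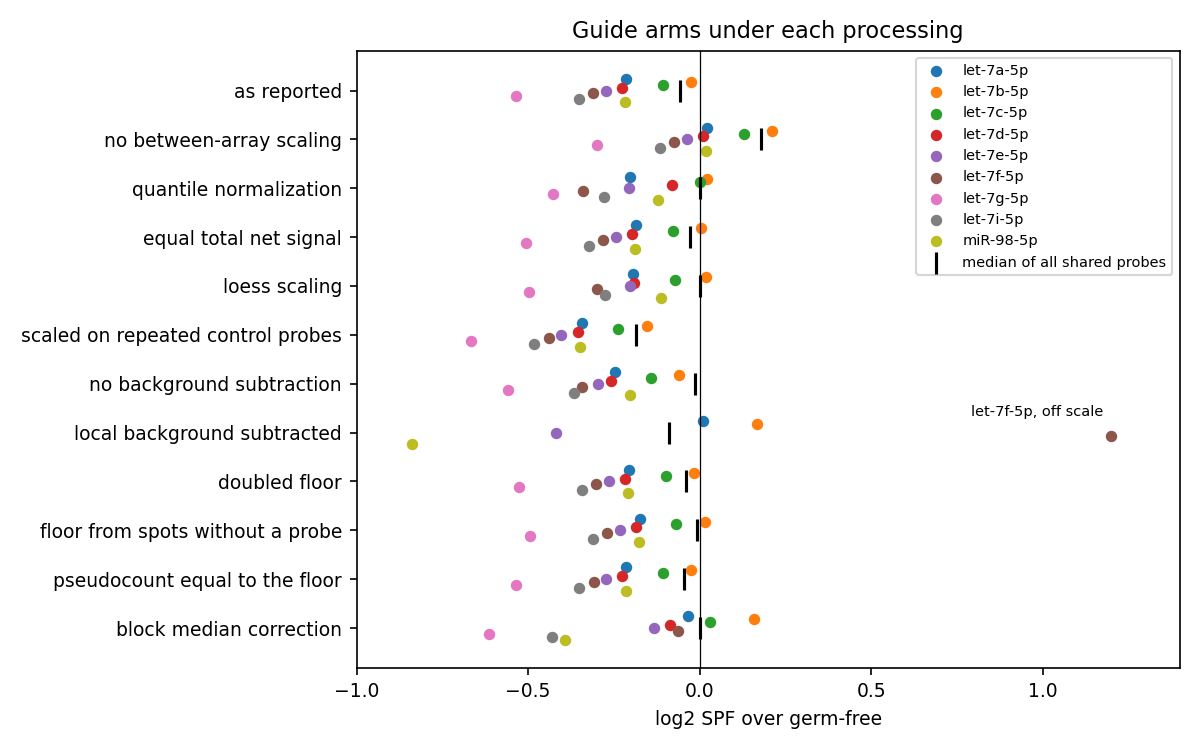
Log2 SPF over germ-free of the 9 guide arms under each processing, with the median of all shared probes as a vertical tick. let-7g-5p is the lowest guide arm under each processing that gives it a value, from -0.30 without between-array scaling to -0.67 with scaling on the control probes, and let-7f-5p at 4.10 with local background subtracted is drawn near the right edge, off scale.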

How the data were processed

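Per the file headers, each array was scanned at 3 gains, and the deposited files give for each of 3200 spots a median intensity and the median intensity of its surroundings. The deposited intensity carries no background subtraction or scaling in its column. Per the labels' protocols, a Qiagen miRNA kit gave the RNA, which was then Hy5-labelled (Exiqon kit). The platform, probe sequences, miRBase release and scanner software were not stated. Groups follow the sample titles. The blank mean was subtracted, with 1 blank spot marked NG left out on the SPF array. Probes under the floor on 1 array were set to the floor. Log2 SPF over germ-free was computed over all 1900 probes in Python 3.11.15 with numpy 2.4.6, pandas 2.3.3 and statsmodels 0.14.6. The computation was tested on simulated arrays without block differences, and only for probes brighter than the passenger arms. With 1 array per group there was no test. The number of arrays limits the precision. All family probes are named. The members and lists were chosen with earlier results of these data known. With 2 arrays no miRNA of like pattern was sought. Sequences are from RefSeq (GRCm38.p6), matched by name.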

Additional observations from a re-analysis of the deposited data

How the results depend on the processing

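The values depended most on the scaling between arrays, on the background and on the correction for blocks of spots. Without scaling the guide arm median was 0.0101 (4 of 9 arms lower, 1 past 1.2-fold) and the passenger arm median 0.0297, while the median of all shared probes was 0.18. With scaling on the 5 repeated control probes, which stood 0.07 to 0.22 higher on the SPF array, the guide and passenger medians were -0.36 and -0.34. Under that scaling 7 guide arms were past 1.2-fold and all 9 below 0. All shared probes moved too, to a median of -0.19 with 71.7% of them below 0. Scaling by 1 factor cannot change the guide median minus that of all probes, which was -0.17 as reported, -0.24 without background subtraction, -0.09 with block medians taken off and 0.10 with local background subtracted. Subtracting each spot's local background gave a guide median of 0.0110 over the 5 guide arms with a value (2 lower, 2 past 1.2-fold). Of the 1864 probes with a value under that setting, 57.2% were lower. let-7f-5p was then at 4.10. Among the 5 neighbouring 5p arms 4 were above 0, with miR-125b-5p at 2.32 and miR-125a-5p at 1.75. The neighbour miR-125b-2-3p, under the floor with germ-free RNA, was at -0.26, beside 0.34 or more as reported. Repeated control spots spread by a log2 SD of 1.30 under that setting. Without background subtraction the passenger median was -0.0095, and with block medians taken off the guide median was -0.086 and the passenger median 0.0159. Quantile, loess and equal total scaling, an added pseudocount (the floor), a doubled floor and a floor from spots without a probe gave guide medians from -0.23 to -0.19, with 7 to 9 arms lower. Of all shared probes 49.8% to 57.6% were lower in these. let-7e-5p, let-7f-5p, let-7g-5p and let-7i-5p were below 0 as reported and under all 10 alternatives other than local background, and let-7b-5p in 5 of these 11. The highest values among these were -0.04 for let-7e-5p, -0.06 for let-7f-5p and -0.12 for let-7i-5p, each within 1 technical SD (0.128) of 0. No paired analysis was possible because each group has 1 array. The cause of these shifts was not tested. Weak passenger signal is the limit for those arms.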

Other observations

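The summed net intensity of the 9 guide arms was 3.50% of that of all miRNA probes on the SPF array and 4.08% on the germ-free array, and that of the 11 passenger arms 0.0242% on the SPF array and 0.0260% on the germ-free array. Local background followed the bright let-7 spots. It was 103.6% of the spot's own intensity for let-7i-5p on the SPF array and 118.8% on the germ-free array, and 44.5% for let-7f-5p on the SPF array and 97.7% on the germ-free array. At 4 of the 9 guide arms (let-7c, let-7d, let-7g and let-7i) it reached the signal on at least 1 array.

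Over the 36 pairs of guide arms, the 4 pairs that differ by 1 base lay between 0.06 and 0.11 apart in log2 SPF over germ-free. The 10 pairs that differ by 2 bases lay between 0.004 and 0.32 apart, and the 11 that differ by 3 between 0.05 and 0.43. The 9 pairs that differ by 4 bases lay between 0.01 and 0.51 apart. The 1 pair with 5 differing bases lay 0.08 apart and the 1 pair with 6 lay 0.13 apart. The technical SD of such a comparison was 0.18. Spearman's rho between the number of differing bases and the distance was 0.21 across pairs, which share members and are not independent.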
